A study of Mus musculus with 4 samples.

Results

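Pleiotrophin (Ptn) and midkine (Mdk), their syndecan receptors (Sdc1, Sdc2, Sdc3 and Sdc4) and 4 further binding partners (Ptprz1, Ncl, Hspg2 and Lrp1) were followed across the cells of fetal mouse leg muscle. These 10 genes, of 32285 features in the count tables, were taken by name. Leg muscles of E18.5 fetuses were dissociated and profiled by droplet single-cell RNA-seq, with 2 libraries of wild-type fetuses (WT) and 2 of fetuses lacking the long noncoding RNA SYISL (KO). Both genotypes were littermates from matings of heterozygous mice and received no treatment. The KO is a whole-animal deletion and is not restricted to muscle. The number of fetuses behind each library is not given in the sources used here, and SYISL is not among the feature names, so the genotypes rest on the labels.

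Pleiotrophin and midkine are the members of a small family of secreted, heparin-binding growth factors, made in large amounts in the embryo and less in most adult tissues. Both bind the heparan or chondroitin sulfate chains of cell-surface proteoglycans. Syndecans are transmembrane proteoglycans that present such ligands to other receptors, and in muscle Sdc3 and Sdc4 are known as surface proteins of satellite cells. Ptprz1 is a receptor-type tyrosine phosphatase known mainly from glia, Lrp1 is a large endocytic receptor, Ncl (nucleolin) is a nucleolar protein of ribosome production that can also reach the cell surface, and Hspg2 (perlecan) is a heparan sulfate proteoglycan of basement membranes.

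In the GRCm38 assembly with the GENCODE M21 annotation, all members are protein-coding genes. Ptn lies on chromosome 6 (36714929 to 36810220, minus strand), as does Ptprz1 (22875502 to 23052916, plus strand). Mdk and Sdc4 share chromosome 2 (91929805 to 91932297 and 164424247 to 164443887, both minus strand), and Sdc3 and Hspg2 share chromosome 4 (130792537 to 130826319 and 137468769 to 137570630, both plus strand). Sdc1 is on chromosome 12 (8771323 to 8793715, plus strand), Sdc2 on chromosome 15 (32920723 to 33034935, plus strand), Ncl on chromosome 1 (86344719 to 86359400, minus strand) and Lrp1 on chromosome 10 (127538161 to 127621148, minus strand).

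The libraries held 9528 to 11670 barcodes and 109653824 to 126257094 UMIs (unique molecular identifiers, each standing for 1 captured RNA molecule), and 36969 of 41741 barcodes passed the filters. Cells were clustered without the members, and a class was named only from marker genes. FAP-like cells (fibro-adipogenic progenitors, the connective tissue cells of muscle) were the most numerous with 15469 cells, and 6728 cells were myogenic-like. KO replicate 2 stood apart in sex-linked genes, with 131038 Xist UMIs against 0 to 5 in the other libraries. Droplets that carried markers of more than 1 class occurred in several classes, and a cluster of 435 such myogenic and FAP droplets was left out of the classes. The level of a gene in a class is its count in CPM (of every 1e6 UMIs that the class held in a library, those of the gene), and each range below is over the 4 libraries. Since reads came from the 3′ end of transcripts and length does not scale them, levels are compared between classes for 1 gene and not between genes.

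Ptn was a connective tissue transcript. In FAP-like cells its level was 1809 and 2031 CPM in the WT libraries and 2070 and 1892 CPM in the KO libraries. In tenocyte-like cells, named for the fibroblasts of tendon, it was 2120 and 2193 CPM in WT and 2048 and 2339 CPM in KO. The border between these 2 classes was not sharp. A Kera-led cluster of 2700 tenocyte-like cells also carried 8 of 10 FAP markers, and the class held 3973 cells, but 2189 with a looser cell filter. Both classes lay far above the myogenic-like cells, where the level was 92.9 and 104 CPM in WT and 99.2 and 99.8 CPM in KO, and the FAP-like level was 19.0 to 20.9 times the myogenic-like level within a library. Sub-clusters of FAP-like cells named by a leading gene differed as well. The Pi16-led cells held 2614 CPM (2281 to 2832), which did not overlap the 1673 CPM (1628 to 1738) of the Smoc2-led cells, while the cycling FAP-like cells at 1914 CPM (1801 to 2056) overlapped neither. Below them stood an unnamed Ccl11-led cluster with 1003 CPM (931 to 1045), glial-like cells with 790 CPM (710 to 853) and chondrocyte-like cells with 600 CPM (471 to 735), of which the last pair overlapped. By sum, FAP-like cells supplied 68.2% (63.7 to 77.4) of all Ptn UMIs and tenocyte-like cells 18.0% (9.89 to 21.2), against 1.42% (1.28 to 1.55) for myogenic-like cells, which held 17.7% of the UMIs of all genes.

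**Figure D1:**
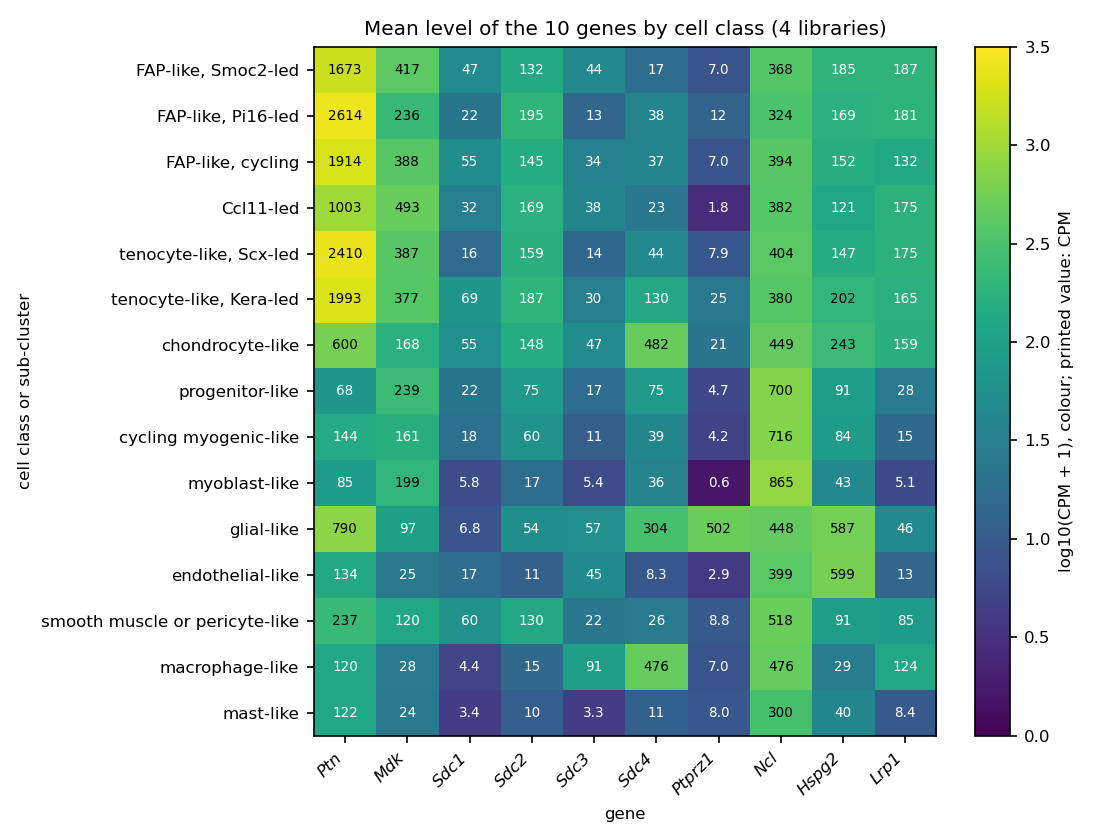
Mean level of the 10 members over the 4 libraries, with classes or sub-clusters in rows, genes in columns, CPM printed in each field and log10(CPM + 1) as colour. Ptn is highest in FAP-like and tenocyte-like rows, Ptprz1 in the glial-like row at 502 CPM, and Ncl in the 3 myogenic rows.

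Mdk was spread more widely, and myogenic-like cells were among its sources. Its level was 343 and 345 CPM in WT and 374 and 410 CPM in KO FAP-like cells, and 188 and 194 CPM in WT and 190 and 226 CPM in KO myogenic-like cells. The FAP-like level was thus 1.78 to 1.96 times the myogenic-like level in each library. The Ccl11-led cluster held the highest mean at 493 CPM (433 to 563), overlapping the Smoc2-led FAP-like cells. Within FAP-like cells the order of the sub-clusters was not that of Ptn: Pi16-led cells, with the highest Ptn level, held 236 CPM of Mdk (186 to 279), below the 417 CPM (384 to 462) of Smoc2-led cells. FAP-like cells supplied 56.5% of the Mdk UMIs and myogenic-like cells 12.6% (11.6 to 13.3).

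**Figure D2:**
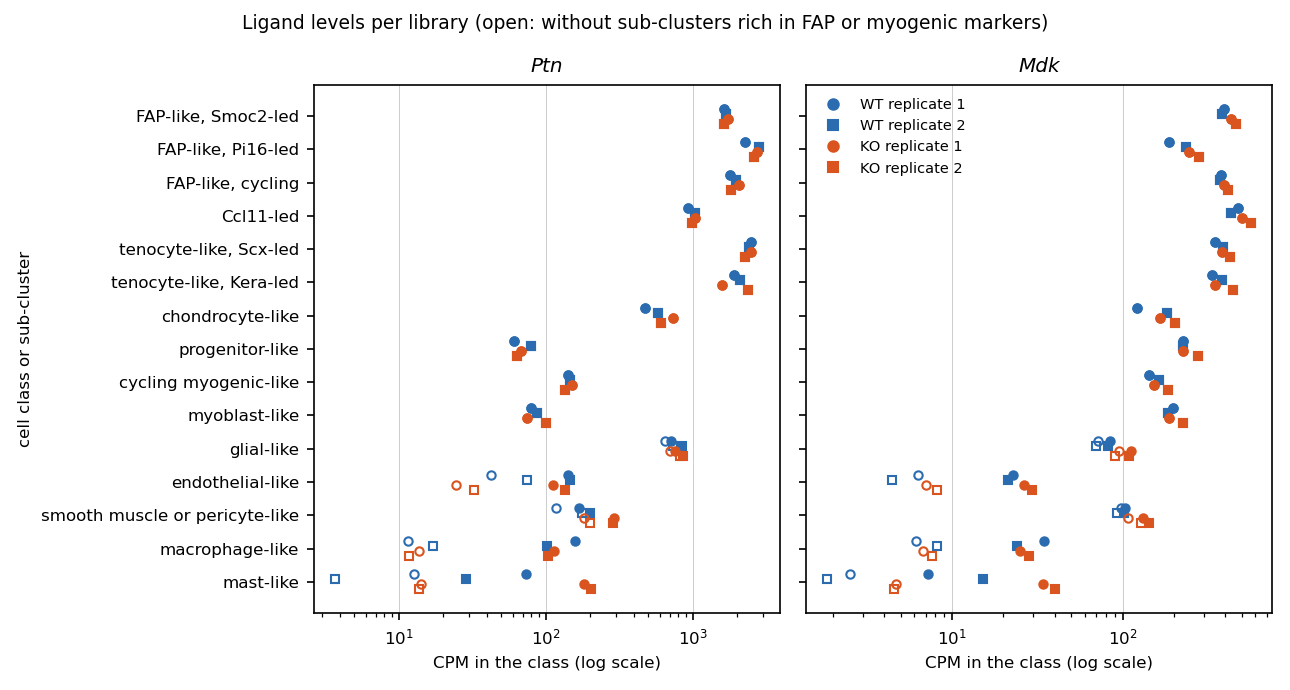
Levels of Ptn (left) and Mdk (right) in CPM on a log axis, with 1 symbol per library, blue for WT and orange for KO; open symbols leave out sub-clusters rich in FAP or myogenic markers. The myogenic rows keep their values because no sub-cluster was left out there. Ptn in macrophage-like cells moves from a mean of 120 to 13.5 CPM and in mast-like cells from 122 to 11.0 CPM.

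Part of the ligand signal outside connective tissue moved with FAP-marked droplets. Leaving out the sub-clusters that carried at least 7 FAP or myogenic markers, a step added after the data were seen, lowered Ptn in macrophage-like cells to 13.5 CPM (11.5 to 17.0) and in endothelial-like cells to 43.5 CPM (24.7 to 74.4). The myogenic-like class held no such sub-cluster, but the cluster of 435 myogenic and FAP droplets had been set apart from it beforehand. Relative to the other myogenic-like cells, the progenitor-like sub-cluster carried 4 FAP markers and the myotube-like sub-cluster 5. With every cell thinned to 2000 UMIs, 15.3% of myogenic-like cells held a Ptn UMI (14.2 to 16.8), against 91.6% of FAP-like cells. Among macrophage-like cells without the marker-rich sub-clusters the share was 2.61% (1.72 to 3.52). For Mdk the shares were 31.3% in myogenic-like cells and 1.58% in macrophage-like cells, again without the marker-rich sub-clusters. Whether carried-over RNA contributed to any of these shares was not tested.

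The abundant FAP transcripts Col1a1, Col3a1 and Dcn gave a second scale for the ligands. In FAP-like cells there were 9.82 Ptn UMIs per 100 UMIs of these 3 genes (8.51 to 10.8). Progenitor-like cells, the undifferentiated myogenic cells, had 11.3 (9.70 to 14.1), so that the ranges overlapped. Within a library the progenitor-like value was above the FAP-like value in 4 of 4 libraries, with 9.70 against 8.51 and 14.1 against 10.8 in WT and 10.8 against 9.54 and 10.7 against 10.4 in KO. The ratio varied among other connective tissue cells. It was 4.66 (3.88 to 5.18) in the Ccl11-led cluster, 8.03 (5.43 to 10.6) in Kera-led and 14.0 (13.5 to 14.8) in Scx-led tenocyte-like cells. The Scx-led value was above the progenitor-like value in every library. Cycling myogenic-like cells had 25.8 (20.6 to 32.3) and myoblast-like cells 37.6 (34.3 to 40.4), both above the FAP-like value in every library. Endothelial-like cells without marker-rich sub-clusters had 21.2 (11.9 to 32.0). Whether RNA carried over from other cells contributed to these ratios was not tested. Mdk stood further from the FAP-like ratio of 1.86, with 39.7 per 100 in progenitor-like, 28.7 in cycling and 88.1 in myoblast-like cells.

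**Figure D3:**
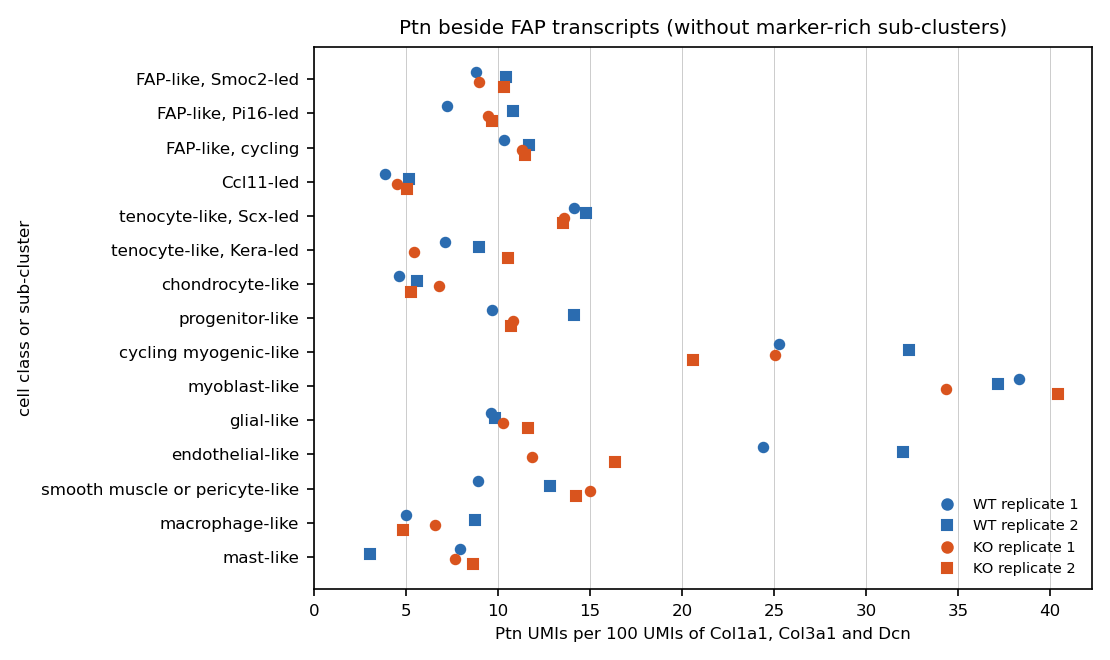
Ptn UMIs per 100 UMIs of Col1a1, Col3a1 and Dcn on a linear axis, with 1 symbol per library and marker-rich sub-clusters left out. Progenitor-like cells (9.70 to 14.1) lie beside the FAP-like sub-clusters, and cycling myogenic-like and myoblast-like cells (20.6 to 40.4) lie to their right.

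Along the myogenic stages the receptors and Ptn ran in different directions. Sdc4 was at 84.4, 59.9, 85.4 and 71.5 CPM in progenitor-like cells (WT replicates 1 and 2, then KO replicates 1 and 2) and at 40.8, 35.6, 36.2 and 31.8 CPM in myoblast-like cells, so that the stages did not overlap. Sdc2 went from 75.1 CPM (66.0 to 82.5) in progenitor-like cells to 17.2 CPM (12.8 to 20.5) in myoblast-like cells, and the progenitor-like level was 3.22 to 6.45 times the other within a library. Sdc1, Sdc3, Hspg2 and Lrp1 were also higher in progenitor-like than in myoblast-like cells in 4 of 4 libraries, with ratios of 3.40 to 4.75, 2.15 to 4.38, 1.94 to 2.46 and 4.82 to 6.16. Ptn was highest in the cycling cells at 144 CPM (136 to 150), 1.85 to 2.33 times the progenitor-like level. The cycling cells were named from cell cycle genes alone, so they have no set place in the order of the stages. Mdk was lowest in the cycling cells at 161 CPM (142 to 185), and Ncl was highest in myoblast-like cells at 865 CPM (810 to 931). Myotube-like cells numbered 79, with 11 to 30 in a library, and were not tested.

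**Figure D4:**
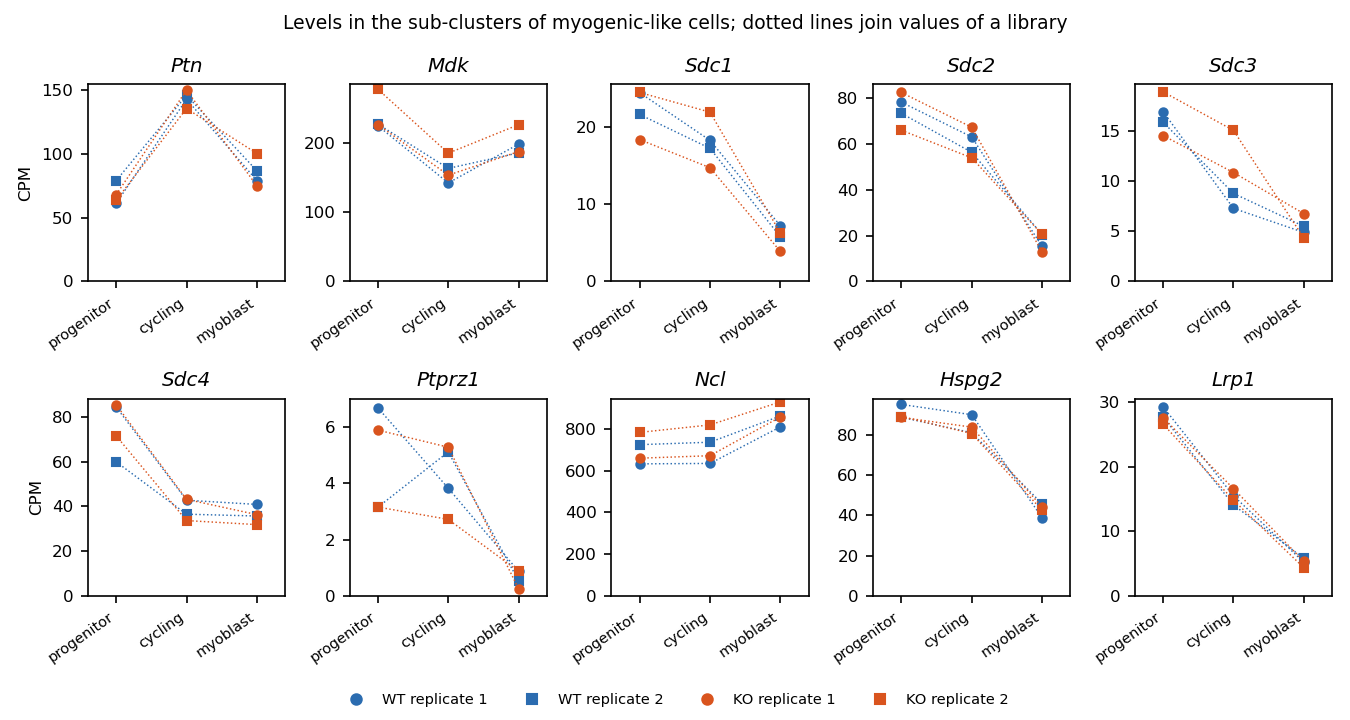
CPM of each member in progenitor-like, cycling and myoblast-like cells, with 1 symbol per library and dotted lines joining the values of a library. Syndecans, Hspg2 and Lrp1 are lower in myoblast-like than in progenitor-like cells, Ptn is highest in the cycling cells and Ncl in the myoblast-like cells. The lines do not show an order of stages.

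Each receptor had its own set of classes. Sdc4 was highest in chondrocyte-like cells (623 and 402 CPM in WT, 465 and 437 CPM in KO) and macrophage-like cells (493 and 420 CPM in WT, 495 and 497 CPM in KO), which overlapped, followed by glial-like cells at 304 CPM (288 to 320). Among the macrophage-like cells, a sub-cluster of 578 cells held 637 CPM and an H2-Aa-led and Ccr2-led sub-cluster of 256 cells held 92.3 CPM (62.5 to 126). The myogenic-like class supplied 10.7% of the Sdc4 UMIs. Chondrocyte-like cells supplied 26.3%, with a range of 9.78 to 37.2 that moved with their number, 174 cells in KO replicate 1 and up to 1047 elsewhere.

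Sdc2 followed the connective tissue. Its level was highest in Pi16-led FAP-like cells at 195 CPM (171 to 218) and Kera-led tenocyte-like cells at 187 CPM (179 to 192), and it lay at 130 CPM (123 to 137) in smooth muscle or pericyte-like cells, the mural cells of vessels. Sdc1 was highest in the Kera-led tenocyte-like cells at 69.0 CPM (61.0 to 75.4), overlapping the mural cells at 60.4 CPM (50.3 to 76.5). A mural sub-cluster of 113 cells led by Scg2 and Pappa2 held 244 CPM of Sdc1. Sdc3 was highest in macrophage-like cells, with 124.5 and 71.3 CPM in WT and 95.4 and 72.1 CPM in KO, none of which overlapped the 56.9 CPM (54.4 to 60.8) of glial-like cells.

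Ptprz1 was a glial transcript. Its level in glial-like cells was 462 and 469 CPM in WT and 510 and 567 CPM in KO, against 25.2 CPM in the next class, the Kera-led tenocyte-like cells, and 76.2% of its UMIs came from glial-like cells (70.0 to 79.8). A sub-cluster of 334 glial-like cells led by Syt1, Itga8 and Gpr17 held 1696 CPM (1581 to 1832). Hspg2 was shared by endothelial-like cells at 599 CPM (585 to 626) and glial-like cells at 587 CPM (563 to 611), which did not differ beyond their spread. Lrp1 was at 159 to 187 CPM on average in the FAP-like cells that were not cycling, the Ccl11-led cluster, both tenocyte-like sub-clusters and chondrocyte-like cells, and at 27.8 CPM in progenitor-like cells. Ncl was highest in progenitor-like, cycling myogenic-like and myoblast-like cells, which did not overlap the next class, mural cells at 518 CPM.

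Across the means of the 10 classes, the gene whose log2 level ran most like Ptn was Postn (periostin, a matrix protein of connective tissue), with a Pearson r of 0.99, followed by Col5a2 at 0.98 and Amot at 0.97. For Mdk they were Antxr1 at 0.98, Ntmt1 at 0.97 and Amer1 at 0.97, and for Sdc2 Dact3 at 0.99, Cacna2d1 at 0.98 and Chpf at 0.97. For Sdc1 they were Hoxa10 at 0.96, Rerg at 0.96 and Triqk at 0.95, for Sdc3 Rhob at 0.96, Rusc2 at 0.96 and Chm at 0.95, and for Sdc4 Cacna1d at 0.92, Zfx at 0.92 and Gm20732 at 0.91. Among the members, Sdc2 ran most like Mdk (r = 0.94), and Ptn and Mdk had an r of 0.77. These values describe 10 classes that share libraries and dissociation.

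The genotypes were then compared in each class over the libraries, with 2 WT and 2 KO values for each gene. Of 95 member tests, 1 passed an adjusted p of 0.05 in edgeR's quasi-likelihood test, beside 30 of 129484 tests (0.0232%) over all genes and the same 10 classes. An unadjusted p under 0.05 was found in 12 of the 95 member tests, and for 1.78 to 7.26% of all genes in a class. By class, 0.111% of genes passed in mast-like and 0.017% in endothelial-like cells, and the remaining calls were in smooth muscle or pericyte-like cells. In myogenic-like cells 0 of 10 members passed (0.0% of 14709 genes), 0 of 10 had an unadjusted p under 0.05, and DESeq2 called 0. Their log2 fold changes (KO against WT) ran from -0.03 to 0.27, with edgeR adjusted p-values of 0.967 to 1.00. For Ptn the change was 0.06 (95% interval -0.12 to 0.24), for Sdc2 0.03 (-0.21 to 0.27) and for Sdc4 0.06 (-0.26 to 0.38). Changes within these intervals were not excluded with 2 libraries per genotype, and the intervals are not limits of detection. Sdc4 levels overlapped, with 59.8 and 45.5 CPM in WT and 58.9 and 47.9 CPM in KO.

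Among the tested myogenic sub-clusters, Sdc3 in cycling myogenic-like cells had the widest separation. Its level was 7.29 and 8.79 CPM in WT and 10.9 and 15.1 CPM in KO, which corresponds to 0.72 ± 0.23 (SE) on the log2 scale (edgeR adjusted p = 0.996). The KO values were both higher, as they were for 12.3% of all genes there, but the difference did not pass over all genes. Without KO replicate 1 the change was 0.95 with an edgeR adjusted p of 0.0237, a fit that leaves KO replicate 2, the library that stood apart in Xist, as the only KO library and assumes that it varies like the WT pair. With each of the other libraries left out, the change was 0.46 to 0.86 and did not pass.

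In FAP-like cells, the main source of the ligands, 0 of 10 members passed (0.0% of 17868 genes), 1 of 10 had an unadjusted p under 0.05, DESeq2 called 0, and changes ran from -0.09 to 0.22. Ptn changed by 0.08 (95% interval -0.12 to 0.27) on the log2 scale. Mdk had the highest estimate, 0.22 ± 0.07 (SE), with an unadjusted p of 0.0189 and an adjusted p of 0.999 in edgeR. The difference between the effects in myogenic-like and FAP-like cells lay between -0.07 for Mdk and 0.13 for Sdc3, and 0 of 10 passed edgeR's interaction test, with 0 at an unadjusted p under 0.05.

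**Figure D5:**
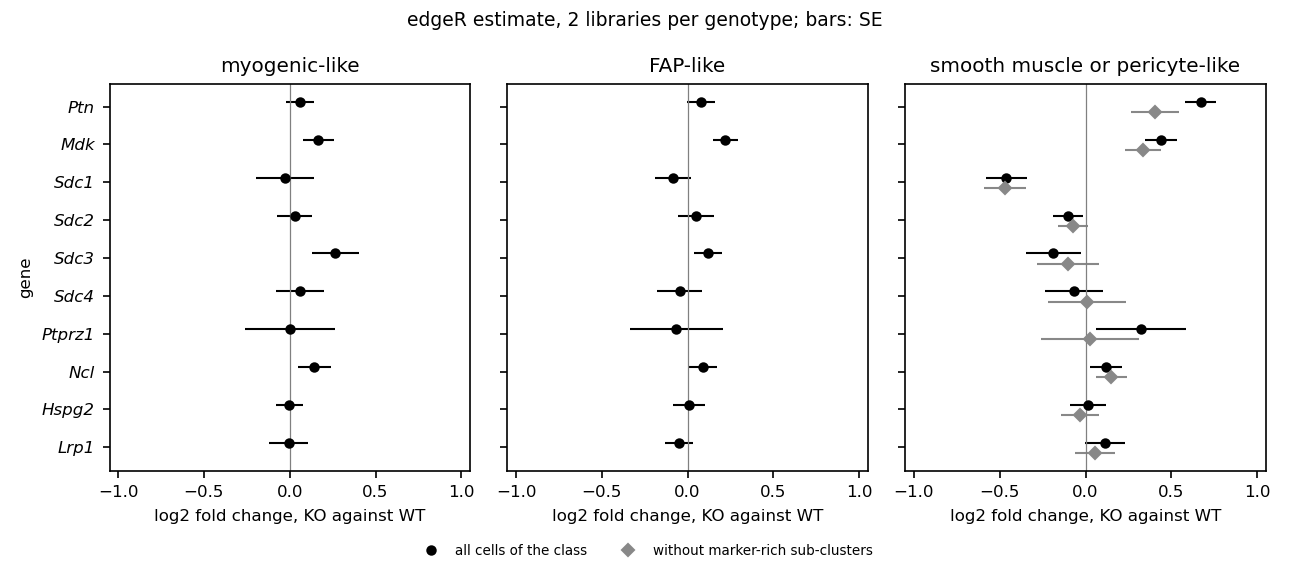
Log2 fold change of KO against WT for each member in myogenic-like, FAP-like and smooth muscle or pericyte-like cells; points are edgeR estimates and bars their SE, and grey diamonds leave out sub-clusters rich in FAP or myogenic markers. All estimates in the first 2 panels lie between -0.09 and 0.27, and Ptn in the third moves from 0.67 to 0.40.

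The 1 call was Ptn in smooth muscle or pericyte-like cells, where 0.159% of 12601 genes passed. Its level was 168 and 201 CPM in WT and 290 and 289 CPM in KO, which is 0.67 ± 0.09 (SE) on the log2 scale (edgeR adjusted p = 0.00385). FAP markers moved with it. Their summed level in these cells was 2854 and 2374 CPM in WT and 4184 and 3441 CPM in KO, and 9 of 10 markers were higher in both KO libraries. A sub-cluster of 91 cells with all 10 FAP markers held 985 CPM of Ptn and comprised 15 and 8 cells in WT and 40 and 28 in KO. Without it and a small myogenic-marked sub-cluster, Ptn was 117 and 178 CPM in WT and 181 and 200 CPM in KO. The change was then 0.40 with an edgeR adjusted p of 0.992. The FAP markers then summed to 1975 and 2079 CPM in WT and 1820 and 2090 CPM in KO. Since the sub-cluster was left out for carrying these markers, their lower sum follows from that choice. The cause of the Ptn difference was not tested. With predicted doublets removed the change was 0.50 (adjusted p = 0.529), and with a looser cell filter 0.56 (adjusted p = 0.392).

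In the same cells Mdk was at 103 and 102 CPM in WT and 131 and 143 CPM in KO (log2 fold change 0.44 ± 0.09 SE, edgeR adjusted p = 0.102). Sdc1 went the other way, with 64.3 and 76.5 CPM in WT and 50.5 and 50.3 CPM in KO (-0.46 ± 0.12 SE, edgeR adjusted p = 0.241). The groups did not overlap for either gene (both KO libraries were lower for 19.1% of all genes in this class), and neither passed. In mast-like cells Ptn was at 73.9 and 28.8 CPM in WT and 183 and 203 CPM in KO (1.90 ± 0.35 SE, edgeR adjusted p = 0.170). Here too the FAP markers were higher in KO, at 2754 and 2243 CPM against 842 and 606 CPM, for 10 of 10 markers. Without the marker-rich sub-cluster Ptn in mast-like cells was 12.7 and 3.69 CPM in WT and 14.1 and 13.7 CPM in KO.

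Mdk leaned towards KO in most classes without passing in any. The log2 fold change was positive in 9 of 10 classes (-0.10 to 1.70), and both KO libraries exceeded both WT libraries in 6 classes. Over all genes that separation was found in 9.3% of genes in FAP-like, 13.3% in Ccl11-led, 14.6% in glial-like, 13.6% in endothelial-like, 15% in smooth muscle or pericyte-like and 19.4% in mast-like cells. In glial-like cells the levels were 84.2 and 82.5 CPM in WT and 111 and 109 CPM in KO. Leaving out marker-rich sub-clusters lowered mean Mdk from 24.1 to 3.41 CPM in mast-like and from 25.0 to 6.49 CPM in endothelial-like cells. The mast-like levels were then 2.53 and 1.85 CPM in WT and 4.70 and 4.57 CPM in KO. The endothelial-like levels were 6.31 and 4.46 CPM in WT and 7.02 and 8.19 CPM in KO. All classes came from the same libraries, so they do not repeat the comparison independently. KO replicate 2, the library that stood apart in Xist, held the highest Mdk level in 8 of 10 classes, and the part of that difference in the result was not tested.

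Counted for all members, both KO libraries also exceeded both WT libraries for Sdc3 in FAP-like and myogenic-like cells (10.2% of genes in the latter), Ptprz1 in tenocyte-like (10.9%), glial-like and smooth muscle or pericyte-like cells, Ptn in chondrocyte-like cells (13.5%), in smooth muscle or pericyte-like and in mast-like cells, and Sdc4 in macrophage-like cells (12.3%). In KO, both values were under both WT values for Sdc3, Hspg2 and Lrp1 in the Ccl11-led cluster (19.9% of genes), Sdc2 in tenocyte-like (17.5%), Sdc3 and Hspg2 in chondrocyte-like (15.4%) and Sdc1 and Hspg2 in glial-like cells (17.2%). The same held for Ptn in endothelial-like (16.8%), Sdc1, Sdc2 and Sdc3 in smooth muscle or pericyte-like, Sdc1 and Lrp1 in macrophage-like (20.9%) and Ncl in mast-like cells (18.4%), and for 0 members in FAP-like (20.9%) and myogenic-like cells (23.4%). Apart from Ptn in smooth muscle or pericyte-like cells, none of these passed the adjusted threshold of edgeR.

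Shares of myogenic-like cells with a member UMI were compared after thinning. Ptn was found in 15.04% and 16.8% of WT and in 14.9% and 14.2% of KO cells, and Sdc4 in 10.2% and 8.08% of WT and in 11.4% and 8.44% of KO cells. The groups did not overlap for 2 of 10 members, Ptn (lower in KO) and Sdc3 (higher in KO), each with the exact permutation p of 0.333, which is the smallest that 2 against 2 libraries allow. For Ptn the nearest shares were 15.04% in WT and 14.9% in KO. With predicted doublets removed its groups overlapped, with 14.95% and 16.8% in WT and 14.96% and 14.1% in KO. The CPM of Ptn also overlapped between genotypes, with a change of 0.06. The product of a ligand's and a receptor's level in myogenic-like cells was also compared for 14 pairs. On the log2 scale Ptn with Sdc4 gave 12.44 and 12.21 in WT and 12.51 and 12.22 in KO, and Ptn with Sdc2 gave 12.41 and 12.46 in WT and 12.57 and 12.30 in KO. Both pairs overlapped between genotypes. The pairs without overlap were Ptn with Sdc3 and Mdk with Sdc2, Sdc3 and Lrp1 (4 of 14, each exact p = 0.333, adjusted p = 1.0). How often shares or products of other genes lacked overlap was not computed, so these counts have no background beside them.

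Other genes of the system were counted from 5 lists of 74 genes: further ligand-binding partners, other heparan sulfate proteoglycan cores, enzymes that build and edit heparan sulfate, syndecan adaptors and shedding enzymes, and receptor-associated genes. In myogenic-like and FAP-like cells 0 genes of each list passed in edgeR, with 0 or 1 gene of a list at an unadjusted p under 0.05. The list medians lay between -0.07 and 0.05 on the log2 scale, where the median of all genes was 0.00. Over all 10 classes 1 of 665 tests passed, that of Vcan (versican, a chondroitin sulfate proteoglycan) in mast-like cells (2.96 ± 0.29 SE on the log2 scale, edgeR adjusted p = 0.0235), the class where the FAP markers were also higher in KO. In myogenic-like cells the heparan sulfate proteoglycan Gpc3 (glypican 3) was at 503 CPM with a change of -0.04, and Hs6st2, a heparan sulfate sulfotransferase, was at 443 CPM with a change of -0.05. Itgb1 (integrin beta 1), which acts with syndecans in adhesion, was at 405 CPM with a change of 0.07. Npm1 (nucleophosmin, a nucleolar protein) was at 2329 CPM with a change of 0.08, and Ctnnb1 (beta-catenin) at 212 CPM with 0.05. Ext1, which builds the heparan sulfate chain, was at 330 CPM with a change of -0.012, and Gpc6, another glypican, at 202 CPM with 0.019. Vcan was at 182 CPM with a change of 0.14. The syndecan adaptor Cask was at 97.2 CPM with a change of -0.09, and the sheddase Adam10 at 82.1 CPM with -0.09. The edgeR adjusted p-values of these 10 genes in myogenic-like cells were 0.967 to 0.987.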

How the data were processed

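Per the labels, libraries were made with the Chromium 3′ v3 protocol, and the deposited UMI counts were produced by the authors with Cell Ranger 7.2.0 on mm10; whether intronic reads were counted is not given in the sources used here. A barcode was kept if it had 1000 to 6000 detected genes, a total of 1000 to 25000 UMIs and a mitochondrial share below 8%. Cells were clustered in scanpy 1.11.5 (3000 variable genes without the members, 30 components, 20 neighbours, Leiden resolution 0.3), and clusters were named from marker lists. Predicted doublets (Scrublet, 788 cells) were kept and removed in an alternative. UMIs were summed per library and class, with at least 20 cells in every library, and tested with edgeR 4.0.16 (TMM, filterByExpr, quasi-likelihood, Benjamini-Hochberg over all genes of a class), with the library as the replicate. Intervals use the SE and degrees of freedom of that test. On simulated data for myogenic-like cells (14709 genes), 94% of genes with a log2 change of 1 were recovered. The changed genes were drawn above a minimum mean count, and dispersion followed the fitted trend without scatter between genes. Smaller changes were not simulated, so this share does not apply to changes of the size estimated for the members. The genes named were all members, the 3 genes most like each ligand or syndecan over class means, list genes that passed, and the most abundant 2 of each list in myogenic-like cells. The members and lists were chosen with earlier results of these data known. In sums over all kept cells, libraries of a genotype differed beyond sampling noise (chi-square per degree of freedom 17.1 in WT and 42.2 in KO). These sums also carry differences in cell composition, and the spread within a class was not measured this way. Although fetuses were dissected individually, which fetuses entered each library is not given in the sources used here, so p-values measure the spread between libraries. In bulk sums, fewer cells with a transcript and less transcript per cell cannot be told apart.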

Additional observations from a re-analysis of the deposited data

Results flagged for a closer look

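For Ptn and Sdc3, both KO libraries lay on one side of both WT libraries in some classes and on the other side in others, and the difference between those classes was not tested. Ptn was higher in both KO libraries in chondrocyte-like (log2 fold change 0.35), smooth muscle or pericyte-like (0.67) and mast-like cells (1.90), and lower in both in endothelial-like cells (-0.21). Only the value in smooth muscle or pericyte-like cells passed the adjusted threshold of edgeR. In endothelial-like cells the summed FAP markers were higher in KO, with 1940 and 2291 CPM against 1642 and 1220 CPM, while Ptn was 141 and 146 CPM in WT and 111 and 136 CPM in KO. Sdc3 was higher in both KO libraries in FAP-like (0.12) and myogenic-like cells (0.27), and lower in both in Ccl11-led (-0.091), chondrocyte-like (-0.25) and smooth muscle or pericyte-like cells (-0.19). None of these Sdc3 changes passed the adjusted threshold of edgeR, and over all genes 9.3% to 19.4% were higher in both KO libraries of a class and 15.4% to 23.4% lower in both.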

How the results depend on the processing

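The number of member calls (1) was 3 without the filter on low counts, 3 with a replicate block and 2 with DESeq2. It was 0 with predicted doublets removed, without marker-rich sub-clusters or with the looser cell filter. The share of all genes called is not set beside these counts, so a rise may not be particular to the members. The calls gained under the block were Mdk and Sdc1 in smooth muscle or pericyte-like cells. The replicate numbers are only shared numbers (correlation of deviations 0.37 over all cells, 0.17 in myogenic-like and 0.30 in FAP-like cells, for 2 pairs). Members without overlap in the shares of cells (2) became 4 without thinning, 1 with doublets removed and 5 to 8 without 1 library, and ligand-receptor pairs without overlap (4) became 7 to 11 without 1 library, where a lone library makes overlap rarer. The class with the highest level was kept for 9 of 10 members with doublets removed or without marker-rich sub-clusters, for 8 with the looser filter, with members kept in the clustering or with the mean of per-cell CPM, and for 9 to 10 without 1 library. Sdc4 moved from chondrocyte-like to macrophage-like and Lrp1 from Ccl11-led to FAP-like cells, Ptn from tenocyte-like to FAP-like and Sdc2 from tenocyte-like to Ccl11-led cells under the looser filter, and Hspg2 from endothelial-like to glial-like cells with the mean of per-cell CPM. With members kept in the clustering, a cluster of 2736 cells led by Mxd3, Plk1 and Hmmr was named chondrocyte-like. In the main clustering the cluster led by these cell cycle genes was FAP-like, so both classes then held other cells.

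Without 1 library, the log2 fold change in myogenic-like cells ranged from -0.0092 to 0.13 for Ptn, -0.29 to 0.20 for Sdc1, -0.10 to 0.15 for Sdc2, -0.13 to 0.28 for Sdc4, -0.29 to 0.26 for Ptprz1, -0.061 to 0.060 for Hspg2 and -0.083 to 0.072 for Lrp1. In FAP-like cells it ranged from -0.22 to 0.042 for Sdc1, -0.062 to 0.17 for Sdc2, -0.18 to 0.10 for Sdc4, -0.44 to 0.44 for Ptprz1, -0.11 to 0.13 for Hspg2 and -0.13 to 0.039 for Lrp1. In myogenic-like cells the sign also changed for Ptprz1 with the replicate block (-2.3e-05) and the looser filter (-0.053), and without the low-count filter for Hspg2 (0.0095) and Lrp1 (0.0051). In FAP-like cells it changed for Sdc4 with members kept in the clustering (0.054) and for Ptprz1 with the looser filter (0.047). Under both settings the FAP-like class did not hold the same cells as in the main clustering. The cause was not tested for any of these. Of all log2 fold changes under alternatives, 285 kept direction and side of the threshold, 27 changed sign, 8 gained and 3 lost a call.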
